A study of Mus musculus with 9 samples.

Results

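The NF-kB subunits and inhibitors examined here were the 10 genes Nfkb1, Nfkb2, Rel, Rela, Relb, Nfkbia, Nfkbib, Nfkbie, Nfkbiz and Tnfaip3, taken by a rule that names symbols and uses no measured value, among 27179 genes measured in bulk RNA of mouse liver. The choice of these genes was made with earlier results of these data known. All 10 were found, and all 10 were abundant enough to be tested (normalized counts averaging 10 or more across the libraries). The 9 libraries came from C57BL/6J mice of the wild-type genotype, each injected behind the eye at 17 months of age with 3e+11 vector genomes of an AAV8 vector and sampled 3 weeks later. The vector carried saCas9, a small Cas9 nuclease, under TBG, a promoter active in hepatocytes, together with a U6-driven guide RNA. In 4 mice the guide was directed at the Rosa26 locus, a site used as a neutral cutting control (sgRosa26), and in 5 mice at Ccnd1, the gene of cyclin D1 (sgCcnd1). Cells other than hepatocytes lie outside the activity of the promoter, and RNA of a whole piece of the m-lobe was sequenced, so those cells contribute too. The sgRosa26 libraries are called A, B, C and D, and the sgCcnd1 libraries E, F, G, H and I.

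NF-kB is a family of dimeric transcription factors that switch on genes of inflammation and cell survival. In resting cells the dimers are held in the cytoplasm by IkB proteins. Signals from tumour necrosis factor, interleukin-1 or microbial products activate the IKK kinases, which mark IkB for destruction and free the dimers to enter the nucleus. Several inhibitors, IkB-alpha and A20 among them, are themselves induced by NF-kB and so close a negative feedback loop. In liver the pathway is active in Kupffer cells and other leukocytes, and in hepatocytes it protects against death induced by tumour necrosis factor. Its activity is set largely by protein location and degradation, which RNA levels do not measure.

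Depth ranged from 10840595 to 20176201 reads per library. Ccnd1, the targeted gene, was at 744 ± 110 normalized counts in sgRosa26 (SD, n = 4) and at 362 ± 40.6 in sgCcnd1 (SD, n = 5), with all 5 sgCcnd1 libraries below the lowest control. Its log2 fold change was -1.03 (SE 0.11, limma adjusted p = 0.0116), and it was the only 1 of the 12993 genes tested to pass the threshold of 0.05, 0.00770% of them. That call was lost on leaving out B, D, F, H or I (limma adjusted p from 0.0559 to 0.0852), and DESeq2 called 117 of 11983 genes. Library H stood apart in its Y-linked transcripts: Ddx3y was at 2.00 normalized counts there and at 809.9 to 1154 in the other 8 libraries. Eif2s3y, Kdm5d and Uty were at 0 in H and at 145.5 or more in the other 8. This difference falls in the sgCcnd1 group only, so it is not balanced between the groups. The p-values set the difference between groups against the spread between these animals. Nothing in the labels says whether mice of 1 group shared a litter or cage. If they did, the p-values cannot tell that apart from the guide.

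The promoters of several of these genes hold the letters of a kappaB site, the sequence that NF-kB dimers bind, and they are shown here because several members are known to be induced by NF-kB itself. The 250 bases before a RefSeq start (GRCm38.p6) were at hand for 7 of the 10 genes, in 10 windows, since some genes have several starts. The set of windows used held none for Nfkb1, Relb and Nfkbiz, so nothing is said of their promoters. The 10-base consensus kappaB site was searched on both strands. It was found in 7 of the 10 windows, where 7.25% of all 32851 windows of this length held it, and in 5 of the 7 genes, where 8.23% of 27025 genes held it in any window. Of the 3 Nfkb2 windows, 2 share bases. In each sequence below, written 5' to 3' on the strand of the gene and ending at the base before the start, capitals mark the matches.
Nfkbia, chr12:55492648-55492897, minus strand: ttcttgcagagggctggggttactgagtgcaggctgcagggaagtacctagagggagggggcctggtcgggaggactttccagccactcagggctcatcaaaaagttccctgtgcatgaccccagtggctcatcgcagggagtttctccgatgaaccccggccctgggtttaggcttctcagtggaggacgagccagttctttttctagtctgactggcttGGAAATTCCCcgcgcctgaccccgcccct
Nfkb2, chr19:46304487-46304736, plus strand: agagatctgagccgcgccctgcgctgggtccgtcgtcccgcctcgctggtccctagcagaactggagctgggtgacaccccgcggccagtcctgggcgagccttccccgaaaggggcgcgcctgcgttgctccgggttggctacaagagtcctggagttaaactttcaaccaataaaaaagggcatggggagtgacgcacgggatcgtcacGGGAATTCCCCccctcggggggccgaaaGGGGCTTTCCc
Rel, chr11:23770970-23771219, minus strand: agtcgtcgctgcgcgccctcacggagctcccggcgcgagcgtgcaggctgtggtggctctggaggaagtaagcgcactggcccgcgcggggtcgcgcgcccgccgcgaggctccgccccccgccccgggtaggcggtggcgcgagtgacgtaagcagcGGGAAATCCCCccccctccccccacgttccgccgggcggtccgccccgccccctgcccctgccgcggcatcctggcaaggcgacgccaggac
Tnfaip3, chr10:19015411-19015660, minus strand: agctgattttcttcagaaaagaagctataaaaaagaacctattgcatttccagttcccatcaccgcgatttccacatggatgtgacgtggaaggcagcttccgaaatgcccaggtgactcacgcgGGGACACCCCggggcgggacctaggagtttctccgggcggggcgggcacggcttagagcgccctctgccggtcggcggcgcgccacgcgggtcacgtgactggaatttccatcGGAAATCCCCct
Nfkbie, chr17:45555450-45555699, plus strand: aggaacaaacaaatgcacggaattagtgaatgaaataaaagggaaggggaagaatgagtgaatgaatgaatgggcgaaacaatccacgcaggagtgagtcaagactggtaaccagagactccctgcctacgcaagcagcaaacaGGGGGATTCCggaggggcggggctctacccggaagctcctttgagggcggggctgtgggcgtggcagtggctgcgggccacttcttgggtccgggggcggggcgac
The Nfkb2 window shown held 3 matches, of which 2 overlapped, as did 0.143% of all windows with 3 or more. Another 2 Nfkb2 windows, not shown, held 1 match each. The Rel window held 2 overlapping matches and the Tnfaip3 window shown 2 separate ones, while another Tnfaip3 window held none. The windows of Nfkbia and Nfkbie held 1 each. The windows of Rela and Nfkbib held none, which says only that these letters are not in those bases. A match is a description of the sequence; binding was not measured.

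Levels were compared between genes per kilobase of the longest protein-coding transcript in GENCODE M21. Nfkbia and Rela were the most abundant, at 358 ± 57.1 and 329 ± 21.5 normalized counts per kilobase (SD, n = 9), and their ranges over the libraries overlapped, with Nfkbia above Rela in 5 of 9 libraries. Nfkbib (113 ± 19.4) and Nfkb1 (107 ± 11.1) followed and also overlapped. The range of Nfkb1 lay above that of Nfkbiz (52.0 ± 8.41), which overlapped with Nfkb2 (39.0 ± 5.65). Below these came Nfkbie (25.7 ± 4.55), Relb (16.6 ± 5.43) and Tnfaip3 (14.3 ± 3.18), each overlapping with its neighbour in this order. Rel, the gene of c-Rel, was lowest at 2.91 ± 1.10 normalized counts per kilobase, with a range below that of Tnfaip3. With the union of all annotated exons as the length, Nfkb1 and Nfkbiz exchanged ranks 4 and 5, and the other 8 genes kept theirs.

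Among the subunits alone, Rela made up 66.6 ± 2.46% of the summed level per kilobase (SD, n = 9), Nfkb1 21.6 ± 1.78%, Nfkb2 7.89 ± 0.97%, Relb 3.36 ± 1.04% and Rel 0.59 ± 0.21%. These shares depend on the length used, which the SD does not cover. Per kilobase of the union of all annotated exons, the mean level was 291 for Rela, 36.4 for Nfkb1 and 32.8 for Nfkb2, so Nfkb1 came near Nfkb2. In bulk tissue, fewer cells of a type and less RNA per cell cannot be told apart, and a low level may come from a few cells.

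Between sgCcnd1 and sgRosa26, 0 of the 10 genes passed the adjusted limma threshold of 0.05, which 0.00770% of all genes did. Before adjustment, 0 of 10 had a limma p under 0.05, where 11.0% of all genes tested had one (5.74% lower and 5.22% higher). With edgeR 0 of 10 passed, adjusted or not, where 0.00770% and 10.6% of all genes did, and with DESeq2 0 of 10, where 0.976% and 10.2% did. In 0 of 10 genes were the groups free of overlap, against 3.89% of all genes (1.97% lower in sgCcnd1). The log2 fold change was above 0 in 4 genes and below 0 in 6, with a median of -0.10 beside a median of 0.01 over all genes tested. That median was between -0.06 and -0.04 without any single one of libraries A, B, F, H and I, and -0.01 over the 6 genes averaging 100 or more. A single gene reached an unadjusted limma p under 0.05 without library A (Rel), without E (Nfkbie) and without G (Nfkbiz), a share near that of all genes in the same fits (12.7%, 12.2% and 9.38%). These p-values do not show that the levels were equal: the 95% intervals excluded a change of 2-fold or more for 9 of the 10 genes, all but Rel, and of 1.5-fold or more for 6. Without library H the 10 log2 fold changes lay between -0.40 (Relb) and 0.38 (Rel), and 0 were called.

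**Figure D1:**
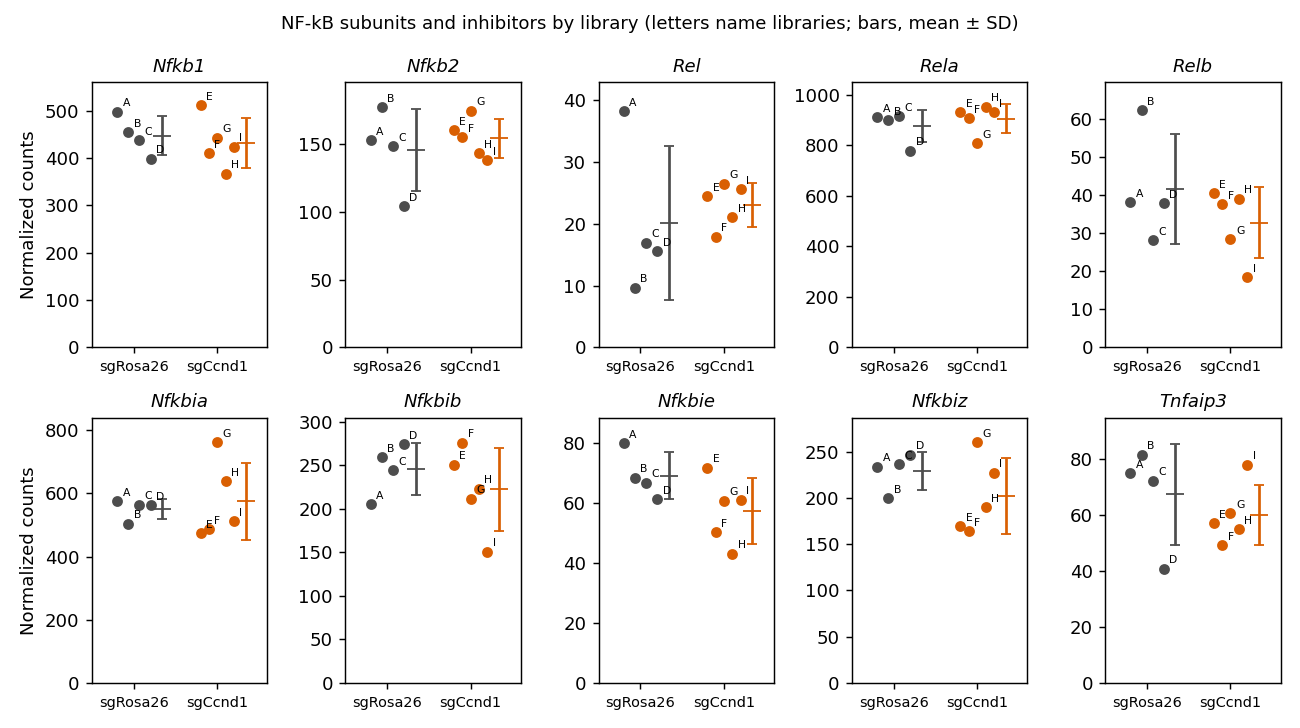
Normalized counts (y axis, from 0) of each of the 10 genes in the 4 sgRosa26 and 5 sgCcnd1 libraries; each point is a library with its letter, and the bars give the mean ± SD of the group. The groups overlap in every panel.

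Rela (Entrez 19697, chr19:5637483-5648130 in GRCm38, GENCODE M21, as for the genes that follow) encodes RelA, the main transactivating subunit. It was at 911, 899, 915 and 779.8 normalized counts in libraries A to D, and at 931, 909, 809.6, 953 and 931 in E to I. Library D was the lowest of the controls and G the lowest of sgCcnd1, while the other 7 lay close together. The means were 876 ± 64.7 in sgRosa26 (SD, n = 4) and 907 ± 56.4 in sgCcnd1 (SD, n = 5). The log2 fold change was 0.05 (SE 0.08, limma adjusted p = 0.859), with a 95% interval from -8.57% to 17.2%, the narrowest of the 10. Without library D it turned to -0.0054.

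Nfkb1 (Entrez 18033, chr3:135584655-135691547) encodes a precursor from which the DNA-binding subunit of the classical heterodimer with RelA is made. Its values were 498, 455, 438 and 399 normalized counts in A to D, and 512, 411, 443, 367 and 424 in E to I. The sgCcnd1 libraries spanned the control range, with E above it and H below it. The log2 fold change was -0.06 (SE 0.11, limma adjusted p = 0.880), with an interval from -18.0% to 12.7%. It ran from -0.12 without library E to -0.00069 without library H.

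Nfkb2 (Entrez 18034, chr19:46304320-46312385) encodes the precursor of the subunit used by the non-canonical pathway, in which the kinase NIK starts its processing. It was at 152, 177, 148 and 104 normalized counts in A to D, and at 160.1, 155, 174, 143 and 138 in E to I. All 5 sgCcnd1 libraries lay inside the control range, whose lowest value was D. Its log2 fold change was 0.10 (SE 0.15, limma adjusted p = 0.831), and without library D it was -0.05. In the annotation, exons of Nfkb2 overlap those of AC114539.1 and Psd on the opposite strand by 531 and 299 bases, and exons of Nfkbib those of Ccer2 and Sirt2 by 314 and 42. Whether counting used strand is not given in the sources used here.

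Relb (Entrez 19698, chr7:19606217-19629438) encodes RelB, the partner of the processed Nfkb2 product. Its values were 38.1, 62.2, 28.2 and 37.9 normalized counts in A to D, and 40.4, 37.6, 28.4, 39.0 and 18.5 in E to I. Library B was the highest and I the lowest, and the other 7 lay between 28.2 and 40.4. The log2 fold change was -0.33 (SE 0.27, limma adjusted p = 0.673), with an interval from -47.1% to 19.7%. It was -0.12 without library B and -0.14 without library I.

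Rel (Entrez 19696, chr11:23736847-23770970) encodes c-Rel, a subunit best known from lymphocytes and myeloid cells. It was at 38.1, 9.64, 16.9 and 15.5 normalized counts in A to D, and at 24.4, 17.9, 26.4, 21.0 and 25.5 in E to I. The controls held both the highest value, A, and the lowest, B, so the sgCcnd1 range lay inside theirs. These values rest on 11 to 32 reads per library, and the exact Poisson 95% intervals of A (25.9 to 54.1) and B (4.81 to 17.3), which cover counting error only, did not overlap. The log2 fold change was 0.35 (SE 0.32, limma adjusted p = 0.713). It was 0.70 without library A (limma adjusted p = 0.303) and 0.08 without library B (limma adjusted p = 0.962), so a control library moved it by more than 1.5 times in either direction.

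**Figure D2:**
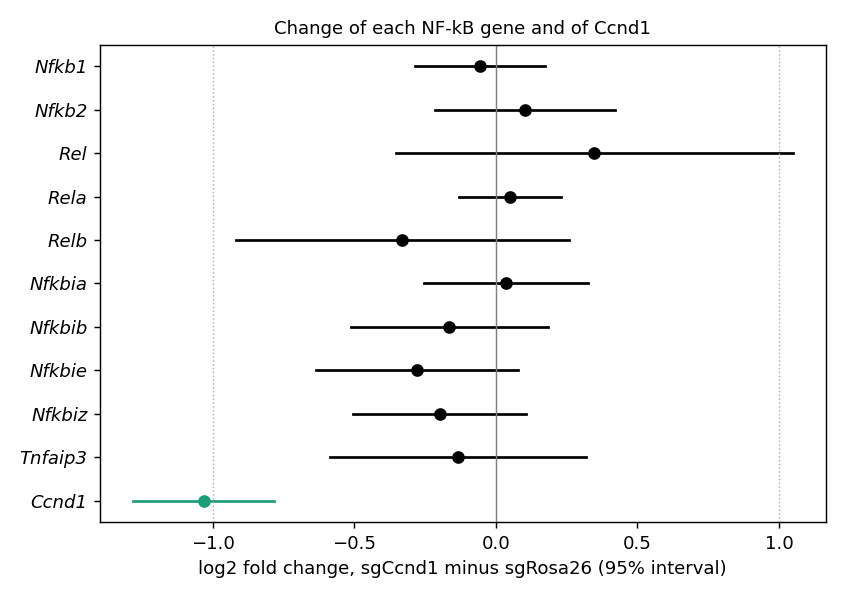
Log2 fold change (x axis, sgCcnd1 minus sgRosa26) of each of the 10 genes and of Ccnd1; points are limma estimates and lines their 95% intervals, with dotted lines at a 2-fold change. The interval of each NF-kB gene includes 0, and only that of Ccnd1, from -1.28 to -0.78, does not.

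Nfkbia (Entrez 18035, chr12:55489410-55492647) encodes IkB-alpha, the inhibitor that is degraded first and then resynthesised on NF-kB activation, from the promoter printed above. It was at 575, 504, 564 and 562 normalized counts in A to D, and at 474, 487, 762, 638 and 511 in E to I. The controls lay close together, while in sgCcnd1 2 libraries (G and H) were above and 2 (E and F) below all of them. The SD was 32.2 in sgRosa26 (n = 4) and 123 in sgCcnd1 (n = 5); the difference in spread was not tested. Nfkbia had a log2 fold change of 0.04 (SE 0.13, limma adjusted p = 0.946), with an interval from -16.2% to 25.4%, and without library G it was -0.07.

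Nfkbib (Entrez 18036, chr7:28758251-28767512) encodes IkB-beta, a slower inhibitor. It was at 205, 259, 244 and 274 normalized counts in A to D, and at 251, 276, 211, 223 and 150.4 in E to I. Library I was the lowest of all 9 and F the highest. Nfkbib had a log2 fold change of -0.16 (SE 0.16, limma adjusted p = 0.730), and it was -0.03 without library I and -0.25 without library F.

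Nfkbie (Entrez 18037, chr17:45555703-45563169) encodes IkB-epsilon, a further cytoplasmic inhibitor. Its values were 79.9, 68.4, 66.6 and 61.2 normalized counts in A to D, and 71.7, 50.1, 60.7, 43.0 and 61.0 in E to I. In 4 of 5 sgCcnd1 libraries it was below all controls, as were 6.56% of all genes tested in at least 4 of 5, and E was the exception. Of these, G (60.7) and I (61.0) lay under control D (61.2) by less than the worth of 1 read, 0.979 and 1.42 normalized counts. The means were 69.0 ± 7.88 in sgRosa26 (SD, n = 4) and 57.3 ± 11.0 in sgCcnd1 (SD, n = 5). Its log2 fold change of -0.28 (SE 0.16) had the smallest p of the 10 genes, and it did not pass (limma adjusted p = 0.550, exact two-sided permutation p = 0.135). Without library H it was -0.18. The interval ran from -35.6% to 5.52%.

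Nfkbiz (Entrez 80859, chr16:55811375-55838899) encodes IkB-zeta, an inducible nuclear protein that works with NF-kB on a subset of its targets. It was at 234, 199.8, 237 and 247 normalized counts in A to D, and at 169, 164, 260.4, 189.9 and 227 in E to I. Libraries E, F and H were below all controls and G was above them. Nfkbiz had a log2 fold change of -0.20 (SE 0.14, limma adjusted p = 0.627), with an interval from -29.5% to 7.74%. It was -0.13 without library F and -0.30 without library G.

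Tnfaip3 (Entrez 21929, chr10:19000910-19015657) encodes A20, a ubiquitin-editing enzyme that shuts down signalling from the tumour necrosis factor receptor. Its values were 75, 81.5, 72.3 and 41 normalized counts in A to D, and 57.2, 49.2, 60.7, 55.0 and 78.1 in E to I. Control library D was the lowest of all 9, and the sgCcnd1 libraries lay between it and B. The log2 fold change was -0.13 (SE 0.21, limma adjusted p = 0.846), and it ran from -0.03 without library B to -0.36 without library D (limma adjusted p = 0.452).

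For all 10 genes the exact two-sided permutation test over the libraries gave a p between 0.135 (Nfkbie) and 0.865 (Nfkbia), where the smallest it can give is 0.00794.

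The coefficient of variation over the 9 libraries ran from 6.54% for Rela, where 3.36% would come from counting reads, to 37.7% for Rel, where it would be 21.9%. For Nfkbia these were 16.0% and 4.23%. The animals are separate, so a spread above counting error is built into the design. The ratio of Nfkbia to Rela in normalized counts was 0.63 ± 0.067 in sgRosa26 (SD, n = 4) and 0.64 ± 0.18 in sgCcnd1 (SD, n = 5), with its highest value, 0.94, in library G. The ratio of Nfkb2 to Nfkb1 was 0.32 ± 0.054 and 0.36 ± 0.038. Each ratio compares 1 pair of genes between animals and is not a ratio of proteins.

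**Figure D3:**
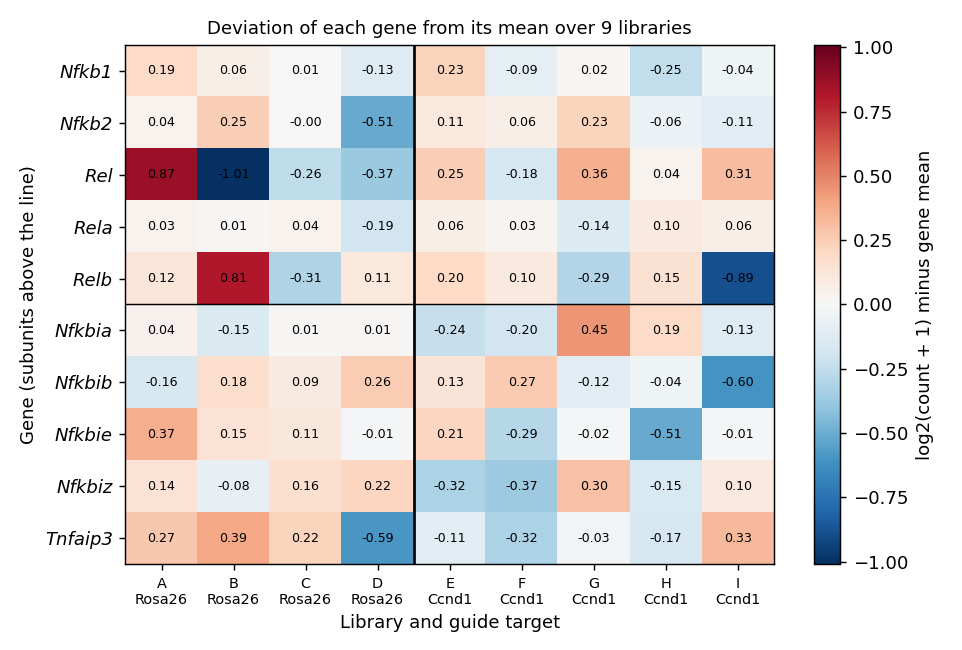
Deviation of log2(normalized count + 1) from each gene's mean over the 9 libraries (colour and printed value), with genes in rows and libraries in columns. Rel and Relb show the widest swings, Nfkbia and Nfkbiz are both highest in library G, and Nfkb2, Rela and Tnfaip3 are all lowest in library D.

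No library was high or low across the whole family. Library A was above the mean in 9 of the 10 genes and libraries D, F, H and I in 4 of 10. Nfkb2, Relb and Tnfaip3 were each highest in control library B, whereas Nfkb2, Rela and Tnfaip3 were each lowest in control library D. Of all pairs the nearest profiles were those of Nfkb1 and Nfkbie, with a root mean square difference of 0.14 on the log2 scale over the 9 libraries. Nfkbia and Nfkbiz were nearest to each other, at 0.19, and both were highest in G.

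Among all genes averaging 50 or more normalized counts, those near in profile to Rel included Hdac4 and Alg10b, with root mean square differences of 0.16 and 0.18 on the log2 scale over 9 libraries. Those nearest to Relb were Coro1a, Eva1b and Cdk2ap2, at 0.20, 0.21 and 0.23. Coro1a encodes a leukocyte actin-binding protein and is on the list of pan-leukocyte markers. Eva1b, Cdk2ap2, Hdac4 and Alg10b are on none of the marker lists. Rel and Relb were taken because they had the largest SD of the 10, and they also had the fewest reads. Counting reads alone would give a coefficient of variation of 21.9% for Rel and 16.3% for Relb. The genes above are the nearest of a search over many, so they may partly match counting error. Whether they are nearer than such a search would give was not tested.

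The rest of the pathway was read from 6 lists of 99 genes, of which 78 were tested and 0 passed the adjusted limma threshold. These lists were chosen with earlier results of these data known, so their counts are a description and not a test. Before adjustment 15 of the 78 had a limma p under 0.05, all with a negative log2 fold change, where 11.0% of all genes had one and 5.74% were lower. Without library B 7 of 77 were lower, where 4.09% of all genes were, without library A 12 were lower and 6 higher (5.72% and 6.97% of all genes), and with no filter 23 of 99 were lower (5.34% of all genes). Of the other IkB proteins only Bcl3 was tested (386 ± 103 against 345 ± 86.0 normalized counts, log2 fold change -0.16), and without library A its value turned to 0.012. In the list of IKK and upstream kinases, 0 of 11 passed, with a median log2 fold change of 0.08, which was -0.00011 without library D. Ikbke, which encodes an IKK-related kinase that also acts in interferon induction, was at 552 ± 83.0 in sgRosa26 (SD, n = 4) and 445 ± 26.4 in sgCcnd1 (SD, n = 5), below all controls in 5 of 5 libraries, as were 1.97% of all genes (log2 fold change -0.30, limma adjusted p = 0.334). Ikbkb, the catalytic IKK subunit of the classical pathway, had a log2 fold change of -0.14, and Map3k14, which encodes NIK, one of 0.32, which was 0.21 without library D and 0.49 without library A.

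Adaptors and ubiquitin enzymes had a median log2 fold change of 0.02, with 0 of 22 passing. That median turned to -0.0081 without library C, -0.0091 with 75th percentile scaling and -0.0069 with quantile normalization. Traf3, an inhibitor of the non-canonical pathway, was the 1 of 22 that lay below all controls in 5 of 5 libraries, against 1.97% of all genes (248 ± 11.2 against 215 ± 16.0 normalized counts). It fell short of the threshold, with a limma adjusted p of 0.418 and a log2 fold change of -0.21. Ripk1, the kinase recruited to the tumour necrosis factor receptor, had a log2 fold change of 0.18, and Itch, a ubiquitin ligase, one of 0.25, which was 0.15 without library B. Receptors had a median of -0.19 and ligands of -0.31, with 0 of 8 and 0 of 7 passing. Without control library A they were -0.05, over 7 receptors since Cd40 then missed the filter, and -0.17, and at a minimum mean of 100 they were -0.06 over 5 genes and -0.13 over 2. Cd40, a receptor of antigen-presenting cells, was at 14.2 ± 4.77 in sgRosa26 and 6.64 ± 1.85 in sgCcnd1 (log2 fold change -0.97, limma adjusted p = 0.334). Cd40 and Il18r1 (13.6 and 8.96) reached the mean of 10 only through sgRosa26, so the filter bears on their direction and on the receptor median, which was -0.26 over all 10 receptors with no filter. With a pseudocount of 10 the log2 fold change was -0.53 for Cd40 and -0.31 for Il18r1. The other receptors with the smallest p were Il18r1 (-0.56) and Tnfrsf1b (-0.24), and the ligands were Tnfsf10 (-0.35), Ltb (-0.59) and Tnfsf12 (-0.31). Without library A, Tnfrsf1b was at -0.13 and Tnfsf12 at -0.17. Of the ligands, 6 of 13 were too low to test, Tnf among them.

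The list of NF-kB target genes had a median log2 fold change of -0.24, with 22 of 29 tested below 0, where 47.1% of all genes were. Without library H the median was -0.14 with 18 below 0, and without library A 17 were below 0. In 11 of 29 the fold change was negative at an unadjusted limma p under 0.05, where 5.74% of all genes were, and 0 passed the adjustment. Of these, Cxcl16 and Icam1 were below all controls in 5 of 5 sgCcnd1 libraries, 2 of 29 against 1.97% of all genes. Cxcl16, a chemokine, was at 177, 174, 166 and 165.1 normalized counts in A to D, and at 143, 117, 122, 125 and 102 in E to I (log2 fold change -0.49, limma adjusted p = 0.233). Icam1, a leukocyte adhesion molecule, was at 396, 359, 282 and 257 in A to D, and at 255, 204, 235, 197 and 246 in E to I (log2 fold change -0.49, limma adjusted p = 0.266). Cxcl10, an interferon-inducible chemokine, was at 83.6, 250.7, 62.9 and 80.6 in A to D, and at 63.3, 41.2, 47.0, 37.0 and 39.7 in E to I (log2 fold change -1.16, limma adjusted p = 0.272). Without library B, its highest, that value was -0.73. DESeq2 called 2 genes of the list, Cxcl10 (DESeq2 adjusted p = 0.0249) and Cxcl16 (DESeq2 adjusted p = 0.0380), where it called 0.976% of all genes, and it called 0 of the list without library H. Without library B, 5 of the 29 targets were lower at an unadjusted limma p under 0.05, where 4.09% of all genes in that fit were.

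**Figure D4:**
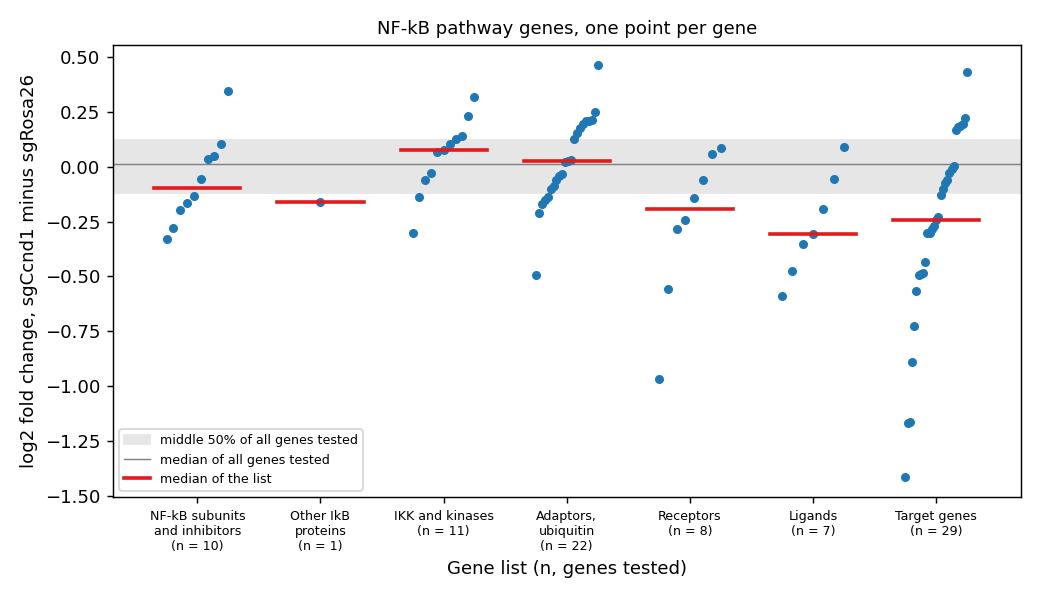
Log2 fold change (y axis, sgCcnd1 minus sgRosa26) of each tested gene of the NF-kB family and of 6 lists of pathway genes; points are genes, red lines list medians, and the grey band holds the middle 50% of all genes tested (-0.12 to 0.12). The medians of receptors, ligands and target genes and the single value of Bcl3 (0.012 without library A) lie below the band, and that of the subunits and inhibitors lies within it.

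Levels of markers of other cell types stand beside these values, and their part in them was not tested. Of the 10 marker lists, the pan-leukocyte and myeloid list was the only one whose summed level did not overlap between the groups. The summed level of 8 pan-leukocyte and myeloid markers was 2405 to 2751 normalized counts in sgRosa26 and 1766 to 2247 in sgCcnd1, and all 8 had a lower mean in sgCcnd1. The 7 T and NK cell markers, also all lower in the mean, summed to 84.8 to 224 and 48.0 to 156. The 9 Kupffer cell markers summed to 2800 to 3979 and 2704 to 3349, with 6 of 9 lower. The 7 hepatocyte markers, Alb among them, summed to 1732511 to 2018880 in sgRosa26 and 1627818 to 2092249 in sgCcnd1, with 4 of 7 higher in the mean, so the defining markers of the labelled tissue were abundant in both groups. Of 3 red cell markers measured, 2 were higher, with sums of 1134 to 2166 and 1799 to 2087. Sums of the 6 B and plasma cell markers were 228 to 451 and 171 to 412, with 6 of 6 lower, and of the 5 neutrophil markers 46.6 to 118 and 31.3 to 57.8, with 5 of 5 lower. Of the stellate cell and fibroblast markers 5 of 6 were lower, of the cholangiocyte markers 5 of 5 and of the endothelial markers 4 of 6. No marker in the table was at 0 in all libraries. For 0 of the tested markers was the limma adjusted p under 0.05.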

How the data were processed

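Poly(A) RNA of liver pieces from 9 mice was measured by RNA-seq. The authors deposited 1 table of normalized counts, a never-negative signal, for 27179 Entrez genes. The submitters' processing notes name Trim Galore 0.6.7, HISAT2 2.2.1, featureCounts 2.0.3, DESeq2 2.11.40.8 and the builds mm10 and GRCm38. The strand setting and annotation are not given in the sources used here. Column headers give the guide target and an animal number, which ties a column to a group and not to a labelled replicate. Read counts could be recovered, since 100% of values in every library were multiples of what 1 read is worth, to within 0.01 read. In library H that value was too near 1 for an automatic check.

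The 12993 genes averaging 10 or more were tested on the scale log2(normalized count + 1) with limma 3.58.1 (R 4.3.3; lmFit, eBayes with trend, two-sided, no covariates) and Benjamini-Hochberg adjustment over all genes tested. Fold changes are on this scale, where a larger pseudocount pulls those of low genes toward 0: Rel was at 0.37 with a pseudocount of 0.1 and at 0.21 with 10, and at 0.23 with edgeR. Recovered reads went into edgeR 4.0.16 and DESeq2 1.42.0 as alternatives, where 1010 adjusted p-values left undefined by DESeq2 stayed so. Other alternatives were the pseudocount, the filter, 2 scalings, robust eBayes and leaving out each library. The procedures were tested on simulated counts. Gene positions and lengths came from GENCODE M21 (GRCm38). Figures were drawn with matplotlib 3.10.9.

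The rule for the members uses symbols alone, but the members, lists and tests were chosen with earlier results of these data known. All 10 members were named, and from each list the up to 3 tested genes with the smallest p. For the 2 members of largest SD, the 3 genes of nearest centred profile were taken, of which 1 is not reported here.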

Additional observations from a re-analysis of the deposited data

Results flagged for a closer look

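In 6 of 84 groups of values examined, 1 library lay far from the others of its group, where chance gives about 4.2 (1 in 20). Of the NF-kB subunits and inhibitors, this held for Rela, at 779.8 normalized counts in library D, where the rest of sgRosa26 lay between 899 and 915. Bcl3 was at 539.8 in sgRosa26 library A against 316 to 346, and Cxcl10 at 250.7 in sgRosa26 library B against 62.9 to 83.6. Ikbkb was at 1009 in sgCcnd1 library E against 857 to 873 in the rest of that group. The summed T and NK cell markers were at 156 in sgCcnd1 library E against 48.0 to 68.5, and the depth of sgRosa26 library A was 12.2 M reads against 16.2 to 16.6 M.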

How the results depend on the processing

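No paired analysis was possible because no column header holds a replicate number. Count models without library H were chosen after seeing the data. Over 206 values of the 10 NF-kB genes under alternatives, 0 were called, 200 kept their sign and 6 turned it. The sign held for 7 of the 10 genes in every alternative, and the exceptions were Nfkb2, Rela and Nfkbia. Leaving out a library in turn gave -0.049 to 0.21 for Nfkb2, -0.0054 to 0.090 for Rela and -0.072 to 0.098 for Nfkbia, which was at -0.0034 with quantile normalization. The cause was not tested. At a minimum mean of 100, 4 of the 10 genes were too low to enter. Of the named pathway genes, Bcl3 ranged from -0.28 to 0.012 when single libraries were left out, and Cxcl16 and Cxcl10 were called with DESeq2 (-0.48 and -1.40).

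Over all genes, limma called 1 lower and 0 higher. DESeq2 called 76 lower and 41 higher, or 25 and 16 once H was removed. Quantile normalization gave 2 lower, edgeR without H gave 0, and leaving out single libraries gave 0 to 2. The log2 fold change of Ccnd1 was -1.02 with edgeR without H (adjusted p = 0.0559) and -1.11 to -0.96 with single libraries left out, no longer past the threshold without B, D, F, H or I (limma adjusted p up to 0.0852); fewer samples enter those fits. Rescaling to the 75th percentile moved the split at an unadjusted p from 678 higher and 746 lower to 464 and 953, and a minimum mean of 100 to 586 and 351. Depth limits Rel most, with 11 reads in its lowest library.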
